A study of Mus musculus with 40 samples.

Results

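The 6 genes described here, Iyd, Rgs14, Necab2, Wfs1, Fibcd1 and Pou3f1, are markers of the pyramidal neurons of the hippocampal CA fields, and were read in dissected dentate gyrus, a neighbouring region made mostly of granule cells. They were chosen by name as CA markers, are 6 of 18194 genes with a probe set that names 1 gene, and were all measured. The samples were the dentate gyrus of 40 adult C57BL/6J mice, 1 Affymetrix array per animal. Of these, 37 carried the label mutant and 3 the label wild type. The mutants are alpha-CaMKII HKO mice, with HKO not spelled out in the labels, and Camk2a is the gene of that kinase subunit. The animals were 22 to 33 weeks old, and each has a 24-h LA value, taken here as activity, with no unit given. Levels are on the log2 scale after RMA, a method that normalises between arrays, so a difference of 1 is a doubling. The p-values of differences and slopes rest on the spread between these animals, nearly all of them mutants. Those of correlations come from permuting values among the mutants.

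The pyramidal layer of the hippocampus is divided into the fields CA1, CA2 and CA3. The axons of granule cells end on CA3 neurons, CA3 projects to CA1, and CA2 is a short zone between them with its own inputs. The fields lie next to the dentate gyrus, and the end of CA3 reaches into its hilus. Each field has its own set of expressed genes, so CA markers read in dentate gyrus RNA can come from neighbouring pyramidal cells or from low expression by the cells of the dentate gyrus. In whole tissue, fewer cells of a type and less RNA per cell cannot be told apart. Among the 6 genes, Wfs1, Fibcd1 and Pou3f1 were listed with CA1, Rgs14 and Necab2 with CA2 and Iyd with CA3.

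The promoters of 4 of the 6 genes were found in RefSeq's annotation of build GRCm38.p6, each running from 250 bases before to 50 bases after the start of the gene. They are shown because Wfs1 and Fibcd1 varied together across the mutants, and because Iyd and Necab2 differed between the genotypes in opposite directions. Capitals mark matches, on either strand, to the octamer bound by POU factors such as Pou3f1 (ATGCAAAT), the cAMP response element (TGACGTCA), the AP-1 site (TGANTCA), the TATA box (TATAAA), the CCAAT box (CCAAT) and the GC box (GGGCGG). No 2 of the matches overlap.
Wfs1, chr5:36988933-36989232, minus strand: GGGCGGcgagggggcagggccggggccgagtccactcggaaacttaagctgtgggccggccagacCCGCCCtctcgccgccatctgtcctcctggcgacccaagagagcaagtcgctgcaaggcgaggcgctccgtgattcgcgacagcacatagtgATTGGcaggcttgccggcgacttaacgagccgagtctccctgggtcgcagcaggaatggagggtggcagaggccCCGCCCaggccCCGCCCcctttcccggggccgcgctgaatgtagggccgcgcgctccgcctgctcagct
Fibcd1, chr2:31845956-31846255, minus strand: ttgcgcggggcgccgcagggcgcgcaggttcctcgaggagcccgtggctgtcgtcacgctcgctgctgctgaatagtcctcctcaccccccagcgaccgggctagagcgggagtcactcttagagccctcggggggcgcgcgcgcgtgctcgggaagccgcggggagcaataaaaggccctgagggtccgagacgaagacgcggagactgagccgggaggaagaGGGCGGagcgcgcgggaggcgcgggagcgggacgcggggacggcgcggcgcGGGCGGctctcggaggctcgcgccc
Necab2, chr8:119446469-119446768, plus strand: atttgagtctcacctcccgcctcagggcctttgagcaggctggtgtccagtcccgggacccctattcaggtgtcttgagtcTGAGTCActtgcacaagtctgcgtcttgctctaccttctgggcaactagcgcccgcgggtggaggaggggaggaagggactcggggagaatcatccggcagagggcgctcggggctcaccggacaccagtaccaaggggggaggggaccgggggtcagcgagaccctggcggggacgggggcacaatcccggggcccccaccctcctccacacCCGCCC
Iyd, chr10:3540024-3540323, plus strand: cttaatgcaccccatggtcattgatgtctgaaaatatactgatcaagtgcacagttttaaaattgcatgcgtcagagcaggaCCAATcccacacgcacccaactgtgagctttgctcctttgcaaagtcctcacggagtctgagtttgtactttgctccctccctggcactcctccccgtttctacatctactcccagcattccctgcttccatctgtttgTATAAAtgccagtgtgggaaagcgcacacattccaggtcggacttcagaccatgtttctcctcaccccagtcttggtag

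These windows differ in composition. Those of Fibcd1 and Wfs1 are 74.3% and 70.0% G or C with 46 and 30 CpG dinucleotides, where the median of 32851 promoters of the same length is 52.7% with 7. The window of Necab2 is 66.7% G or C with 17 CpG dinucleotides. Iyd has the window poorest in G and C, at 49.0% with 6 CpG dinucleotides. The Wfs1 window holds 4 GC boxes and 1 CCAAT box, and that of Fibcd1 holds 2 GC boxes. The Necab2 window holds 1 AP-1 site and 1 GC box, while that of Iyd holds 1 TATA box, which begins 29 bases before the start, and 1 CCAAT box. Among the 32851 promoters, a GC box occurs in 35.7%, a CCAAT box in 37.4%, a TATA box in 13.6%, an AP-1 site in 7.81%, a cAMP response element in 1.79% and the octamer in 1.74%. The octamer and the cAMP response element are not among the letters of these 4 windows.

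The level of Camk2a, the targeted gene, goes against the label in 2 arrays. Its brightest probe set read 12.79 and 12.81 in wild types 1 and 2 and 12.08 in the array labelled wild type 3. It did not exceed 12.31 in 36 mutants, which averaged 12.14 ± 0.06 (SD, n = 36), and read 12.90 in the array labelled mutant 27. The recorded activity of mutant 27 is 46297.38, above all 3 wild types, and that of wild type 3 is 14301.12, the lowest of the 40 animals. Low activity does not mark a wild type, as mutants run down to 16273.92 and wild type 1 has 20979.78. The activity is recorded with the label, so it cannot show whether an array carries the labelled animal. Because of the Camk2a levels, each result is given with and without these 2 arrays, which were left out and not exchanged, and correlations across mutants use the other 36. The tissue label was checked with Prox1 and C1ql2, which mark granule cells. Prox1 averaged 9.04 ± 0.22 (SD, n = 36) and C1ql2 9.97 ± 0.27 (SD, n = 36) in these mutants, against 9.25 and 10.24 in wild types 1 and 2, and neither passed between the genotypes (limma adjusted p = 0.429 and 0.389). Of the 10 mature granule cell markers, of which these are 2, 6 fell and 1 rose in mutants, as given with the other lists. Levels also followed the order in which the samples are listed, described here by 5 runs of 8 consecutive samples. The labels do not call these runs batches.

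The genotypes differed in Iyd, Rgs14 and Necab2. Iyd and Rgs14 were lower in mutants, Necab2 was higher, and the 3 CA1 genes did not pass the test. Over all 40 arrays 2 of the 6 genes fell, 1 rose and 3 did not pass (limma, Benjamini-Hochberg adjusted p under 0.05 over 18194 genes), and 3.95% of all genes passed, 2.03% higher and 1.92% lower. With mutant 27 and wild type 3 left out the same counts held, against 14.3% of all genes, 6.06% higher and 8.26% lower. The median difference of the 6 genes was -0.55 over all arrays and -1.01 without the 2 arrays, where that of all genes was -0.017 and -0.045.

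Iyd encodes iodotyrosine deiodinase, an enzyme that recovers iodide from iodinated tyrosines. The gene was dim here, with its mean level at the 32.1 percentile of all genes. Its single probe set read 5.80 and 5.79 in wild types 1 and 2, and 4.19 in the array labelled wild type 3. Among 36 mutants the lowest was 3.45, the highest 4.82 and the mean 4.14 ± 0.31 (SD, n = 36), while the array labelled mutant 27 read 5.88. All 36 mutants thus lay below wild types 1 and 2, and the groups overlapped only through the 2 arrays. Iyd fell by 1.08 on the log2 scale over all arrays (SE 0.26, limma adjusted p = 0.012) and by 1.66 without the 2 arrays (SE 0.22, limma adjusted p = 1.2e-07).

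Rgs14 encodes a regulator of G-protein signalling that restrains synaptic plasticity in CA2 neurons. It read 9.25 and 8.92 in wild types 1 and 2 and 7.92 in the array labelled wild type 3. Among 36 mutants the lowest was 7.75, the median 8.01 and the highest 8.49, and the array labelled mutant 27 read 9.05. As with Iyd, all 36 mutants lay below both wild types. Rgs14 fell by 0.63 over all arrays (SE 0.16, limma adjusted p = 0.018) and by 1.05 without the 2 arrays (SE 0.13, limma adjusted p = 2.3e-08).

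Necab2 encodes a neuronal calcium-binding protein that partners with G-protein-coupled receptors. It read 8.13 and 7.34 in wild types 1 and 2 and 8.62 in the array labelled wild type 3. Among 36 mutants the lowest was 8.45, the median 8.71 and the highest 9.44, and the array labelled mutant 27 read 7.67. Here all 36 mutants lay above both wild types. Necab2 rose by 0.76 over all arrays (SE 0.21, limma adjusted p = 0.032) and by 1.08 without the 2 arrays (SE 0.22, limma adjusted p = 0.00027). Over all genes, 8.18% had no overlap of the 36 mutants with wild types 1 and 2, with the mutants below in 4.67% and above in 3.51%.

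**Figure D1:**
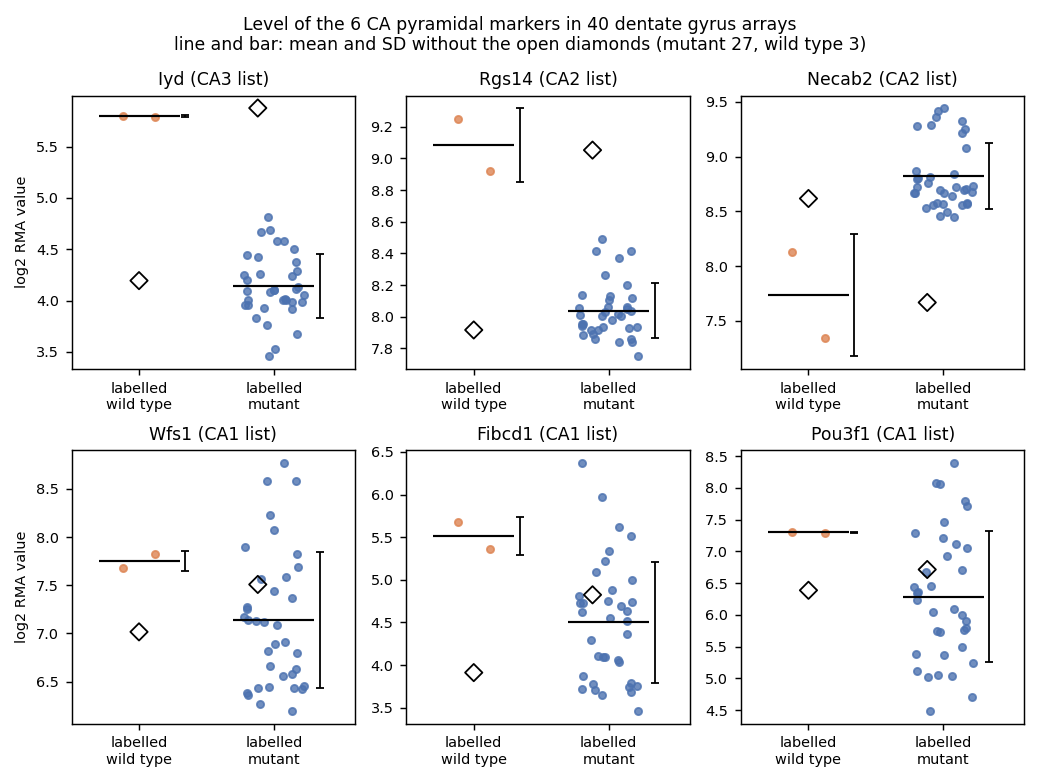
Log2 RMA value of the 6 genes by labelled genotype, 1 point per array, with a line at the mean and a bar for the SD of wild types 1 and 2 (n = 2) and of 36 mutants. Open diamonds are the arrays labelled mutant 27 and wild type 3, which lie with the opposite group for Iyd, Rgs14 and Necab2, while the 3 CA1 genes overlap between the groups.

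The calls of Iyd, Rgs14 and Necab2 rest on wild types 1 and 2. Without wild type 1 the differences over the remaining arrays were -0.81, -0.35 and 0.81, and none passed (limma adjusted p = 0.674, 0.987 and 0.588). Without wild type 2 they were -0.81, -0.52 and 0.41 (limma adjusted p = 0.356, 0.353 and 0.632). In both of these fits the array labelled wild type 3 was 1 of only 2 wild types. Leaving out that array in turn gave -1.61, -1.02 and 1.05, and all 3 passed (limma adjusted p = 7.1e-05, 2.4e-05 and 0.0025). With log2 activity in the model, Necab2 differed by 0.73 and did not pass (limma adjusted p = 0.065).

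Within runs the differences kept their size for the first 2 wild types. For Iyd the mean of the 7 mutants of the first run minus wild type 1 was -1.80 (SD of the mutants 0.46, n = 7), and the 7 of the second run lay at 4.12 ± 0.15 (SD, n = 7) against 5.79 in wild type 2. For Rgs14 the run means were 8.19 ± 0.20 and 7.93 ± 0.09 (SD, n = 7 each) against 9.25 and 8.92. For Necab2 they were 9.33 ± 0.08 and 8.73 ± 0.07 (SD, n = 7 each) against 8.13 and 7.34. The array labelled wild type 3 lay within 0.26 of the mean of the 6 mutants of its run for each of these 3 genes. With the runs as a block and without the 2 arrays, the differences were -1.73 for Iyd (SE 0.22), -1.02 for Rgs14 (SE 0.12) and 1.29 for Necab2 (SE 0.10).

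The 3 CA1 genes were spread widely across the mutants. Wild types 1 and 2 lay close together, but 2 animals cannot give the spread of wild types. A difference in spread between the genotypes was not tested. Wfs1, which encodes wolframin, a membrane protein of the endoplasmic reticulum, read 7.68 and 7.82 in wild types 1 and 2. Among 36 mutants the lowest was 6.19, the mean 7.14 ± 0.71 (SD, n = 36) and the highest 8.77, a range of 5.97-fold. The arrays labelled wild type 3 and mutant 27 read 7.02 and 7.51. Of the 36 mutants 28 lay below both wild types and 7 above, and the difference of -0.61 without the 2 arrays (SE 0.48) did not pass (limma adjusted p = 0.464), nor did that of -0.36 over all arrays (SE 0.39, limma adjusted p = 0.780).

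Fibcd1 encodes a membrane receptor that binds acetylated sugars. It read 5.67 and 5.36 in wild types 1 and 2. Among 36 mutants the lowest was 3.46, the median 4.53 and the highest 6.37, a range of 7.53-fold. The arrays labelled wild type 3 and mutant 27 read 3.91 and 4.82. In 32 of the 36 mutants it lay below both wild types and in 2 above. The difference of -1.01 without the 2 arrays (SE 0.48) did not pass (limma adjusted p = 0.170), nor did that of -0.47 over all arrays (SE 0.41, limma adjusted p = 0.683).

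Pou3f1 encodes a POU-domain transcription factor of CA1 pyramidal cells. Its brighter probe set read 7.30 in both wild types 1 and 2, and 6.39 and 6.72 in the arrays labelled wild type 3 and mutant 27. Among 36 mutants, which averaged 6.29 ± 1.03 (SD, n = 36), the lowest was 4.48 and the median 6.17, and the range of 15.1-fold was the widest of the 6 genes. In 30 mutants it lay below both wild types and in 6 above. The difference was -1.01 without the 2 arrays (SE 0.70, limma adjusted p = 0.387) and -0.70 over all arrays (SE 0.57, limma adjusted p = 0.656). Its dimmer probe set, with a mean of 4.83, differed by -0.97 and -0.58 (limma adjusted p = 0.137 and 0.539 over 45101 probe sets), in the same direction and also without passing. Of all probe sets 9.84% passed without the 2 arrays, 4.85% higher and 4.98% lower, and 1.7% passed over all arrays, 0.909% higher and 0.792% lower. Pou3f1 is the only one of the 6 with 2 probe sets.

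The CA1 genes were among the most variable of all genes across mutants. The SD within runs was 0.92 for Pou3f1, 0.72 for Fibcd1 and 0.67 for Wfs1, against a median of 0.14 over all genes, and placed them at the 99.98, 99.9 and 99.9 percentiles. That of Iyd was 0.30 (the 98.5 percentile), while those of Rgs14 (0.16) and Necab2 (0.13) were near the median gene. Necab2 instead followed the order of the samples. Differences between run means held 82.3% of its variance, against 9.71% for Fibcd1, 16.9% for Iyd, 21.3% for Wfs1, 24.8% for Rgs14, 28.6% for Pou3f1 and 34.9% for the median gene. Mutants of the first run read from 9.22 to 9.44 for Necab2, and those of run 3 averaged 8.62 ± 0.13 (SD, n = 8).

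**Figure D2:**
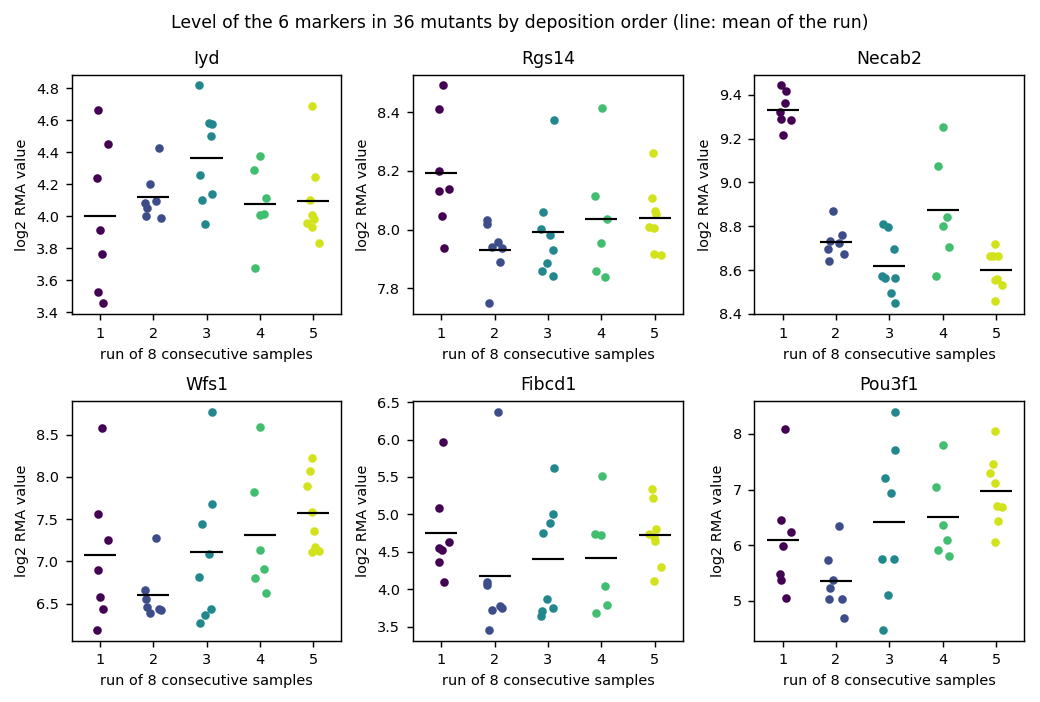
Log2 RMA value of the 6 genes in 36 mutants by run of 8 consecutive samples, with a line at the mean of each run. Necab2 is highest in the first run with little spread inside it, whereas Wfs1, Fibcd1 and Pou3f1 spread widely within most runs.

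Across the 36 mutants Wfs1, Fibcd1 and Pou3f1 rose and fell together, Rgs14 followed them in part, and Iyd and Necab2 did not. The mutants that read highest were largely the same. Mutants 6, 19, 26, 33 and 34 were among the 6 highest for each of the 3 CA1 genes, and 4 of these 5 (6, 19, 26 and 34) were also among the 6 highest for Rgs14. Mutant 19 read highest for Wfs1 and Pou3f1, and place 3 for Fibcd1, at 5.62. Mutant 9 departed from this order, with the highest Fibcd1 of all (6.37) and middling Wfs1 (7.28) and Pou3f1 (6.34). Mutant 22 was among the 6 lowest for all 3 CA1 genes and for Rgs14. Of the 15 pairs among the 6 genes, 6 passed (permutation test, 2-sided, p adjusted over the 15 pairs), all of them positive. The share of pairs among all genes that would pass was not computed, so this count has no background to be set against.

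Wfs1 and Pou3f1 were the closest pair, with Pearson's r of 0.94 and Spearman's rho of 0.93 (permutation p = 1e-05 for both, the smallest that 1e+05 permutations can give, adjusted p = 3.75e-05 and 5e-05). The r was 0.93 without the 2 mutants farthest from the median, and from 0.87 to 0.999 within the 5 runs. Wfs1 and Fibcd1 gave r = 0.81 and rho = 0.84 (permutation p = 1e-05 for both, adjusted p = 3.75e-05 and 5e-05), with r = 0.78 without the 2 farthest. Fibcd1 and Pou3f1 gave r = 0.78 and rho = 0.83 (permutation p = 1e-05 for both, adjusted p = 3.75e-05 and 5e-05), with r = 0.86 without the 2 farthest. With run means subtracted and values permuted within runs, these 3 pairs gave r = 0.93, 0.84 and 0.83. Each was positive in all 5 runs, at 0.82 or above.

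Rgs14 gave r = 0.68 with Wfs1 (rho = 0.55, permutation p = 1e-05 and 0.00075, adjusted p = 3.75e-05 and 0.0023). It gave r = 0.66 with Fibcd1 (rho = 0.65, permutation p = 7e-05 and 5e-05, adjusted p = 0.00021 and 0.00019) and r = 0.58 with Pou3f1 (rho = 0.51, permutation p = 0.00016 and 0.0020, adjusted p = 0.00040 and 0.0049). Without the 2 mutants with the most extreme Rgs14 these fell to 0.56, 0.56 and 0.47, and with run means subtracted they were 0.78, 0.65 and 0.70. All 3 were positive in each of the 5 runs, from 0.21 upwards.

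Iyd and Rgs14, the 2 genes that were lower in mutants, gave r = 0.29 (rho = 0.27, permutation p = 0.086 and 0.116, adjusted p = 0.143 and 0.181) and so did not pass. With run means subtracted they gave r = 0.51 (rho = 0.51, permutation p = 0.0055 and 0.0024, adjusted p = 0.012 and 0.0052), with r = 0.47 without the 2 farthest, and 4 of the 5 runs were positive. Iyd and the CA1 genes gave r from 0.12 to 0.24, and Necab2 and the CA1 genes from -0.21 to 0.064, none of which passed (permutation adjusted p from 0.237 to 0.709). By rank Necab2 gave rho = -0.38 with Pou3f1, -0.33 with Wfs1 and -0.17 with Fibcd1, also without passing (permutation adjusted p = 0.0501, 0.099 and 0.391). With mutant 27 included, Necab2 and Pou3f1 passed by rank (rho = -0.40, permutation adjusted p = 0.035). Rgs14 and Necab2, both listed with CA2, gave r = 0.35 (rho = 0.072, permutation p = 0.036 and 0.675, adjusted p = 0.076 and 0.675). With run means subtracted they gave r = -0.076 (rho = -0.36, permutation adjusted p = 0.741 and 0.091). Without the 2 mutants with the most extreme Rgs14 this r was -0.52, and 1 of the 5 runs was positive.

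**Figure D3:**
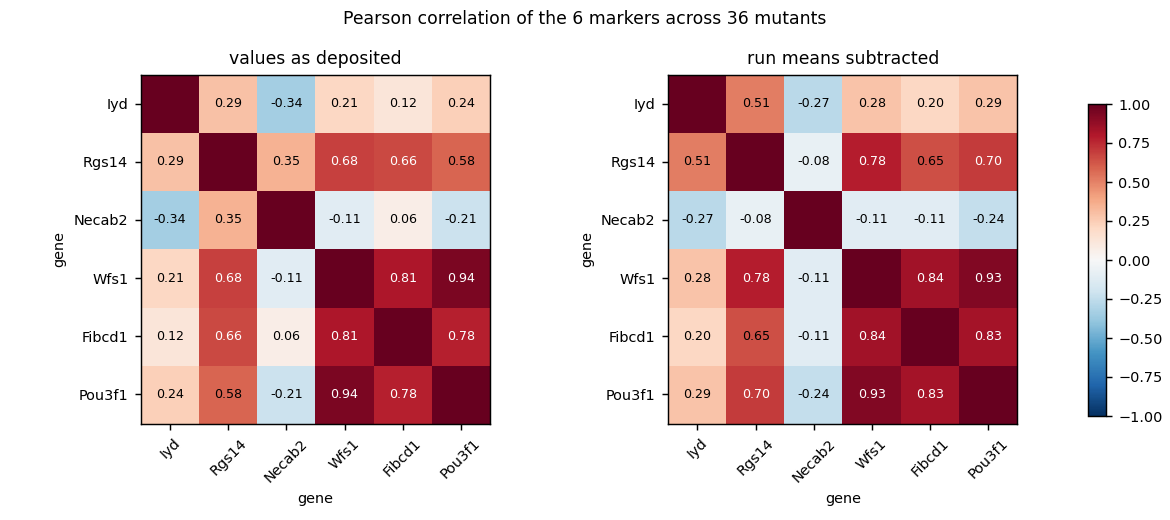
Pearson's r for the 15 pairs of the 6 genes across 36 mutants, with values as deposited on the left and with run means subtracted on the right. Wfs1, Fibcd1, Pou3f1 and, less closely, Rgs14 form a block of positive values, at 0.58 or above in both panels.

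Likeness to the 6 genes was also ranked over the 8878 other genes that were brighter than the median gene, uncharacterised clones aside (8879 for Iyd and Fibcd1), as r across 36 mutants with run means subtracted, and is given as a description. For Pou3f1 the closest were Man1a (0.95), a Golgi mannosidase on the CA1 list, Wfs1 (0.93) and Pex5l (0.93), a partner of HCN channels. For Wfs1 they were Pou3f1, Igfbp4 (0.90), which binds insulin-like growth factors, and the postsynaptic scaffold gene Homer2 (0.90). For Fibcd1 they were Mpped1 (0.90), a phosphoesterase on the CA1 list, Spon1 (0.87) and Sez6 (0.85). Dock10, an exchange factor known for its expression in granule cells, had the lowest r with both Wfs1 (-0.71) and Fibcd1 (-0.85), and Tiam1, another exchange factor, with Pou3f1 (-0.78).

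Rgs14 was most like the kinase gene Hunk (0.84), Rprml (0.81) and Cnih2 (0.79), an AMPA receptor partner, and least like Ctbp2 (-0.71), a corepressor. Among all 18193 other genes Wfs1 ranked 4, Pou3f1 ranked 25 and Fibcd1 ranked 57 for likeness to Rgs14. In turn Rgs14 ranked 30 for likeness to Wfs1, 119 for Pou3f1 and 172 for Fibcd1. For Necab2 the closest were Clstn1 (0.86), Zdhhc8 (0.84) and Pde1b (0.83), and the least like was Cep20 (-0.68). For Iyd the highest were Crls1 (0.62), Cachd1 (0.61) and Ptprj (0.59) and the lowest Ston2 (-0.63).

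**Figure D4:**
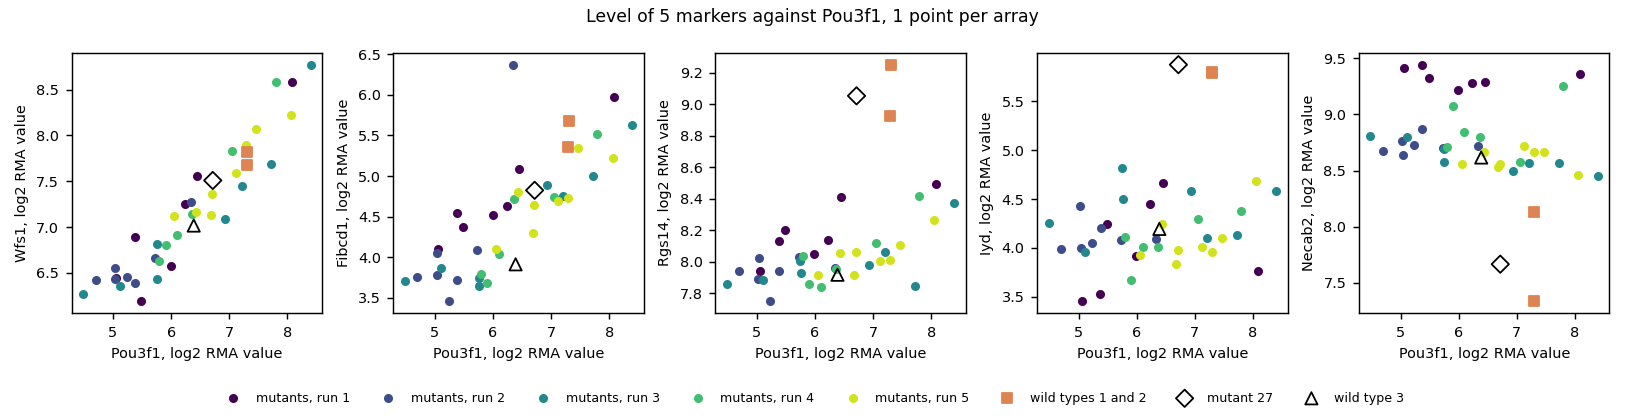
Log2 RMA value of 5 genes against that of Pou3f1, 1 point per array, with mutants coloured by run. Wfs1 and Fibcd1 rise with Pou3f1 across mutants. Wild types 1 and 2 lie among mutants of like Pou3f1 level for Wfs1 and above them for Fibcd1. Both lie inside the range of the 36 mutants for these 2 genes. For Rgs14, Iyd and Necab2, wild types 1 and 2 and the array labelled mutant 27 lie outside the range of the 36 mutants.

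The genotype difference was then fitted at matched level of Mpped1, a CA1 marker outside the 6 genes. This comparison was chosen after the data had been examined. Without the 2 arrays, Iyd differed by -1.60 (SE 0.21, limma adjusted p = 2.7e-07), Rgs14 by -0.98 (SE 0.11, limma adjusted p = 6.4e-09) and Necab2 by 1.04 (SE 0.22, limma adjusted p = 0.00056), against 14.2% of all genes past the threshold, 5.96% higher and 8.2% lower. Each was within 0.08 of its difference without Mpped1 in the model. Across 36 mutants with run means subtracted, Mpped1 gave r of 0.62 with Rgs14, 0.27 with Iyd and -0.21 with Necab2. It gave 0.92 with Pou3f1, 0.90 with Fibcd1 and 0.83 with Wfs1, and itself differed by -0.29, so a shift of these 3 genes followed from those values. Matching on a CA1 marker does not match the arrays for CA2 or CA3 cells. Pou3f1 moved from -1.01 to -0.33 (SE 0.30), Wfs1 from -0.61 to -0.17 (SE 0.26) and Fibcd1 from -1.01 to -0.57 (SE 0.24), and none of the 3 passed (limma adjusted p = 0.527, 0.738 and 0.124). The other CA1 markers moved away from 0 in the same fit, Man1a from 0.11 to 0.57, Ccn3 from -0.026 to 0.79 and Gpr161 from -0.0059 to 0.36, and did not pass either (limma adjusted p = 0.117, 0.202 and 0.277). Over all arrays Iyd (-1.05), Rgs14 (-0.60) and Necab2 (0.74) also passed (limma adjusted p = 0.016, 0.019 and 0.040), where 3.92% of all genes did, 2.01% higher and 1.91% lower.

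Among the listed markers of the CA fields no CA1 marker passed, and most CA2 markers that passed were lower in mutants. The differences of the CA3 markers other than Iyd were all positive. Of 23 listed CA markers, the 6 genes included, 20 were measured. Over all arrays 3 rose, 3 fell and 14 did not pass, where 3.95% of all genes passed. Without the 2 arrays 4 rose, 4 fell and 12 did not pass, where 14.3% of all genes passed. On the CA1 list 0 of 7 passed in limma over all arrays, and 0 of 7 without the 2 arrays, where Fibcd1 alone had an unadjusted p under 0.05 (0.041), with a median difference of -0.29. Mpped1 (-0.29), Man1a (0.11), Gpr161 (-0.0059) and Ccn3 (-0.026) did not pass (limma adjusted p from 0.561 to 0.996).

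On the CA2 list of 7 genes Rgs14, Pcp4 and Cacng5 fell and Necab2 rose without the 2 arrays (median -0.43). Pcp4, which encodes a calmodulin-binding peptide, averaged 12.06 in wild types 1 and 2 and 11.37 ± 0.11 (SD, n = 36) in mutants, and the arrays labelled mutant 27 and wild type 3 read 12.05 and 11.28. It fell by 0.69 (SE 0.08, limma adjusted p = 2.0e-08), and by 0.41 over all arrays (limma adjusted p = 0.021). Cacng5, an AMPA receptor partner, fell by 1.38 (SE 0.18, limma adjusted p = 1.2e-07), from 6.27 to 4.89 ± 0.26 (SD, n = 36), and did not pass over all arrays (-0.73, limma adjusted p = 0.070). Amigo2 (-0.43), Stard5 (-0.040) and Avpr1b (0.038) did not pass. The CA2 list did not vary as 1 set across the 36 mutants. With run means subtracted, r with Rgs14 was 0.38 for Cacng5, 0.11 for Amigo2, -0.019 for Stard5, -0.076 for Necab2, -0.31 for Avpr1b and -0.55 for Pcp4.

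The CA3 list went the other way from Iyd. Of its 6 genes Cpne4, a copine, rose by 0.56 (SE 0.08, limma adjusted p = 3.3e-07), Nectin3, an adhesion molecule, by 0.86 (SE 0.24, limma adjusted p = 0.011) and Grik4, a kainate receptor subunit, by 0.31 (SE 0.08, limma adjusted p = 0.0059) without the 2 arrays. Iyd fell, and Bok (0.36) and Socs2 (0.51) did not pass (limma adjusted p = 0.122 and 0.056). The median of the list was 0.43. At matched Mpped1 level, the fit chosen after the data had been examined, Bok (0.44) and Socs2 (0.58) passed too (limma adjusted p = 0.032 and 0.018). There 5 of the 6 rose and Iyd fell, where 5.96% of all genes rose and 8.2% fell. Over all arrays Cpne4 (0.35) and Grik4 (0.26) passed and Nectin3 (0.63) did not (limma adjusted p = 0.0071, 0.037 and 0.073).

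**Figure D5:**
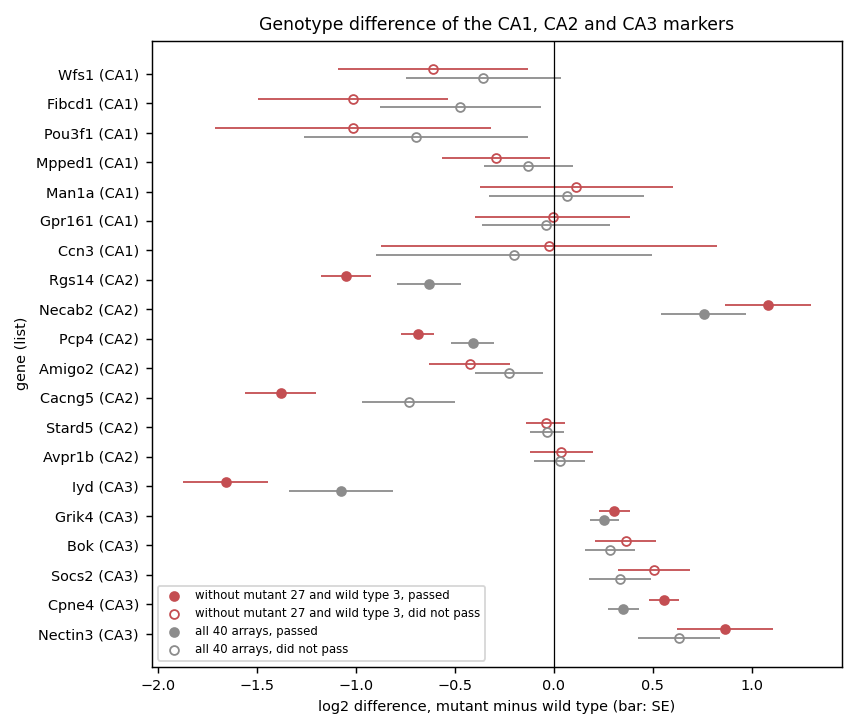
Log2 difference, mutant minus wild type, of the 20 measured CA1, CA2 and CA3 markers with its SE, over all 40 arrays in grey and with mutant 27 and wild type 3 left out in red. Filled points passed at an adjusted p under 0.05: Rgs14, Pcp4, Cacng5 and Iyd lie below 0, and Necab2, Grik4, Cpne4 and Nectin3 above it.

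Markers of other cells moved with the CA1 genes and with the genotype, and their part in the results was not tested. Across 36 mutants, 18 of 72 correlations between the 6 genes and the mean log2 level of 12 marker lists passed (permutation test, adjusted over the 72), 13 positive and 5 negative. The share that other genes would give with these lists was not computed. The other CA1 markers gave r = 0.93 with Pou3f1 (rho = 0.93), 0.82 with Wfs1 (rho = 0.85), 0.80 with Fibcd1 (rho = 0.81) and 0.44 with Rgs14 (rho = 0.41), with permutation adjusted p of 0.00018 for the first 3 and 0.028 for Rgs14. The mature granule cell markers ran against the CA1 genes, at r = -0.62 with Pou3f1 (rho = -0.71), -0.56 with Wfs1 (rho = -0.69) and -0.55 with Fibcd1 (rho = -0.62), with permutation adjusted p of 0.00072, 0.0029 and 0.0049. Oligodendrocyte markers gave r = 0.69 with Pou3f1 (rho = 0.64), 0.68 with Wfs1 (rho = 0.64), 0.67 with Rgs14 (rho = 0.63) and 0.53 with Fibcd1 (rho = 0.54) (permutation adjusted p = 0.00018, 0.00024, 0.00024 and 0.0050). With run means subtracted these relations gave r of 0.91, 0.78, 0.86 and 0.55 for the CA1 list, -0.65, -0.57 and -0.66 for the granule cell list and 0.71, 0.67, 0.59 and 0.48 for the oligodendrocyte list. Without the 2 farthest mutants they kept their signs, the smallest being 0.349 for Rgs14 and the CA1 list. The CA1 relations were positive in all 5 runs, while oligodendrocyte markers ran against Wfs1 (r = -0.15) and Fibcd1 (r = -0.25) in 1 run and granule cell markers rose with Pou3f1 in 1 run (r = 0.068).

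Fibcd1 also rose with markers of interneurons (r = 0.53, rho = 0.44, permutation adjusted p = 0.0065), microglia (r = 0.54, rho = 0.56, permutation adjusted p = 0.0050) and thalamus and habenula (r = 0.46, rho = 0.46, permutation adjusted p = 0.022). Fibcd1 and Pou3f1 were lower where immature granule cell markers were higher (r = -0.44 and -0.47, rho = -0.43 and -0.46, permutation adjusted p = 0.031 and 0.017). Iyd passed with none of the 12 lists, and Necab2 passed with mature granule cell markers (r = 0.43, rho = 0.44, permutation adjusted p = 0.038) and microglia (r = 0.48, rho = 0.23, permutation adjusted p = 0.017). With run means subtracted these gave r = 0.22 and 0.13 and did not pass (permutation adjusted p = 0.278 and 0.524). Choroid plexus markers, whose summed linear level ran from 126 to 16793 across 36 mutants, passed with none of the 6 genes.

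The summed linear level of the 4 CA1 markers outside the 6 genes ran from 252 to 1368 across 36 mutants, was 608 and 615 in wild types 1 and 2, and lay inside the mutant range in the arrays labelled wild type 3 (642) and mutant 27 (396). The 6 oligodendrocyte markers overlapped, with sums of 4649 to 7454 in 36 mutants and of 5919 and 6759 in wild types 1 and 2. The 9 interneuron markers summed to 4503 to 6648 in mutants and to 6184 and 6442 in the wild types. The 10 mature granule cell markers summed to 6307 to 7985 in mutants and to 11072 and 11667 in the wild types. On that list 6 of 10 genes fell and 1 rose with and without the 2 arrays, where 8.26% of all genes fell and 6.06% rose without them and 1.92% fell and 2.03% rose over all arrays, Dsp (-6.77), Tdo2 (-5.75) and Il1r1 (-2.61) having the largest falls without them. The 6 microglial markers summed to 1466 to 2077 in mutants and to 2072 and 2422 in the wild types, and 5 of 6 fell without the 2 arrays, against 8.26% of all genes, Tmem119 (-0.57), Siglech (-0.51) and P2ry12 (-0.46) the most. Over all arrays 0 of the 6 passed in limma, where 4 had an unadjusted p under 0.05.

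On the remaining lists few genes passed without the 2 arrays, where 14.3% of all genes did. Ramp3 (2.38) and Rora (0.26) rose of 8 thalamic and habenular markers. Drd1 (2.15) and Neurod1 (0.49) rose and Stmn1 (-0.31) fell of 7 immature granule cell markers. Gad1 (-0.44) fell of 9 interneuron markers, Calcrl (-0.41) of 4 mossy cell markers and Kl (-1.76) of 6 choroid plexus markers. Of 6 oligodendrocyte and 6 astrocyte markers 0 passed in limma, Opalin (-0.31, adjusted p = 0.217) and Gja1 (-0.18, adjusted p = 0.192) having the smallest p, and only that of Gja1 was under 0.05 unadjusted (0.049). Over all arrays Ramp3, Drd1 and Neurod1 also passed, and Rora, Stmn1, Gad1, Calcrl and Kl did not.

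No change of the 6 genes with activity or age passed the test in the mutants. On the log2 scale the widest gap in the activity of the mutants runs from 25590.06 to 41603.46, with 16 mutants below and 20 above it once mutant 27 is left out. Over the 36 mutants, the change per doubling of activity was 0.11 for Pou3f1 (95% interval -0.22 to 0.44), 0.088 for Wfs1 (-0.14 to 0.31) and -0.00067 for Fibcd1 (-0.23 to 0.23). It was 0.011 for Rgs14 (-0.048 to 0.069), 0.030 for Iyd (-0.071 to 0.13) and 0.032 for Necab2 (-0.066 to 0.13). The limma adjusted p was at least 0.991 for each, and 0.143% of all genes passed, 0.0879% rising and 0.055% falling. In this fit the interval held 0 for every gene and was widest for the CA1 genes. Within the 16 mutants below the gap the slopes of Pou3f1 and Wfs1 were 3.17 (95% interval 0.71 to 5.62) and 2.12 (0.42 to 3.83). Both intervals lay above 0, and neither slope passed over all genes (limma adjusted p = 0.264 and 0.278, unadjusted p = 0.012 and 0.015). Within the 20 above it they were 0.52 (-0.45 to 1.495) and 0.32 (-0.36 to 0.99). The slopes did not differ between the sides past the threshold (limma adjusted p = 0.314 for Pou3f1 and 0.319 for Wfs1, unadjusted p = 0.075 and 0.079). The 16 below span 16273.92 to 25590.06, less than a doubling, with the lowest in run 2 and the highest in run 5. Pou3f1 averaged 5.35 in mutants of run 2 and 6.97 in those of run 5. Fits within a side had no run term, so activity and run were not separated.

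The means of mutants above and below the gap lay close to each other. Pou3f1 averaged 6.30 ± 1.07 (SD, n = 20) above and 6.27 ± 1.02 (SD, n = 16) below, and Rgs14 8.03 ± 0.21 (SD, n = 20) and 8.04 ± 0.13 (SD, n = 16). The difference between the sides ran from -0.14 for Fibcd1 (95% interval -0.60 to 0.32) to 0.082 for Iyd (-0.12 to 0.29), with 0 of 6 past the limma threshold, 0 of 6 with an unadjusted p under 0.05 and 0.0824% of all genes past it, 0.0495% higher and 0.033% lower above the gap. Per week of age, with activity in the model, the change ran from -0.0023 for Rgs14 (-0.020 to 0.015) to 0.071 for Pou3f1 (-0.022 to 0.16). Here too 0 of 6 passed, 0 of 6 had an unadjusted p under 0.05, and 0.0275% of all genes passed, 0.011% rising and 0.0165% falling.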

How the data were processed

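The authors deposited log2 values for 45101 probe sets on 40 arrays. RMA is the tool named, per the submitters' processing notes, with no version, and no genome build is named. RMA subtracts background, normalises between arrays and summarises probes, so a level is relative to the other arrays. Values were used as deposited, with no filter on dim genes. Probe sets naming 1 gene (34958) were reduced to the brightest per gene by mean over all arrays, giving 18194 genes. Groups came from the sample titles. Comparisons were fitted with limma 3.58.1 in R 4.3.3 and eBayes, with 2-sided p adjusted over all genes by Benjamini-Hochberg and a threshold of 0.05. Titles number the animals as biological replicates. The number of arrays limits the precision, and the wild types most.

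Correlations were tested with 1e+05 permutations (numpy 2.4.6), within runs where run means were subtracted. The steps were tested on simulated data. The 6 genes, the 12 marker lists (86 genes, 82 measured) and the rules were chosen with earlier results of these data known. Named were Camk2a, the 6 genes, CA list genes past the threshold, up to 3 passing genes of each other list or the one with the smallest p, and for each of the 6 genes the 3 most like and the 1 least like. CA1 list genes outside the rule, and those that did not pass, are named as values. Promoters are RefSeq's. Alternatives covered arrays left out, runs, replicate numbers, activity, probe sets, dim genes, scaling and the variance model.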

Additional observations from a re-analysis of the deposited data

How the results depend on the processing

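For the genotype, 719 genes passed over all arrays. The count was 2604 with mutant 27 and wild type 3 left out, 0 to 2360 (limma) with 1 wild type left out in turn, 1363 with runs of 8 as a block, 3631 with the runs as a block and without the 2 arrays, and 2575 with the Mpped1 level in the model and without the 2 arrays. The Mpped1 fits were chosen after seeing the data. Wild types 1 and 2 each took the limma count to 0 when left out (956 and 1744 unadjusted), and wild type 3 raised it to 2360. Replicate numbers were not read as pairs of animals. Same-numbered deviations from the group means correlated at 0.43, -0.18 and -0.25, but wild type 1 also gave 0.41 and 0.40 with mutants 2 and 3. Mutants 1 to 3 are all in the first run with wild type 1, so these values cannot show whether the numbers pair animals. With the number as a replicate block over 3 mutants and 3 wild types, 0 genes passed in limma (2615 unadjusted), with Iyd at -1.37, Rgs14 at -0.57 and Necab2 at 1.30 (adjusted p = 0.274, 0.385 and 0.274). Of 82 alternative values of the 6 genes for the genotype, 72 kept their direction and call and 10 kept the direction and lost the call, over 3 left-out or blocked fits and, for Necab2, activity in the model.

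For the activity slope, 26 genes passed: 12 with mutant 27, 98 with the runs as a block, 11 with mean probe sets, 3 within the lower and 0 within the higher side (limma, 1358 unadjusted). For the sides, 15 passed: 8 with mutant 27, 45 with the runs as a block and 9 with mean probe sets. For age, 5 passed: 1 with mutant 27, 237 with the runs as a block and 3 among genes above the median gene. No slope of the 6 genes passed in any of these fits. Some changed sign. For activity these were Fibcd1 with mutant 27 (0.00081), on untransformed activity (0.058), within the lower (0.39) and within the higher side (0.52), Rgs14 with the runs as a block (-0.0015), Necab2 within the lower side (-0.51) and Iyd within the higher side (-0.080). For the sides they were Rgs14 (0.038) and Necab2 (-0.0071) with mutant 27, and for age Rgs14 with mutant 27 (0.00064). The cause was not tested. Of 15 pairs, 6 to 8 passed under the alternatives, and of 72 relations with marker lists 17 to 24.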
